A study of Mus musculus with 9 samples.

Results

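The 36 genes described here belong to the unfolded protein response and the integrated stress response, and they were taken by symbol from a list of sensors, transcription factors and targets of these pathways. All 36 had a row among the 24411 genes of the table, and 35 passed the filter on low values (1 TPM or more in 3 or more of the 9 libraries), as did 11753 genes in all. TPM is a relative transcript level that is corrected for transcript length and scaled to the same total in each library. The libraries came from cultured C57BL/6 mouse macrophages that depend on M-CSF, the growth factor of macrophages: 3 yolk sac (YS) lines started from total cells of E9.5 yolk sacs, 3 fetal liver (FL) lines from E14.5 fetal livers and 3 bone marrow (BM) lines from adult marrow, all kept with M-CSF, with no other treatment given in the labels. A line was a bulk culture grown from its own dish or well, not a clone, and the starting cells were pooled from more than 1 mouse. Lines of a group may share their starting pool, so that the p-values measure the spread between cultures. The comparisons address whether macrophages of embryonic and adult origin still differ after expansion. Per the paper, YS lines were started in multiwell plates and FL and BM lines in dishes. Seeding densities, passages and times to stable growth also differed by origin. Origin and the way the lines were made therefore cannot be told apart.

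The endoplasmic reticulum (ER) folds secreted and membrane proteins, and unfolded proteins there are sensed by IRE1 (encoded by Ern1), PERK (Eif2ak3) and ATF6. IRE1 splices the mRNA of the transcription factor XBP1, and ATF6 is cut to release a transcription factor, and both raise chaperones, disulfide isomerases and ER-associated degradation (ERAD), which returns misfolded proteins to the cytosol. PERK phosphorylates eIF2α, which lowers translation but favours that of ATF4. Since other kinases of eIF2α answer to amino acid shortage, heme shortage or double-stranded RNA, the ATF4 branch is called the integrated stress response. In macrophages these pathways are known to be engaged by cholesterol loading and by infection. Levels of mRNA show neither XBP1 splicing nor eIF2α phosphorylation, and in bulk cultures fewer cells with a transcript and less of it per cell cannot be told apart.

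All 8 macrophage markers were detected in the 9 lines, but several were uneven. Csf1r ranged from 1086 to 2441 TPM, Cd68 from 1018 to 3448 TPM, Spi1 from 364 to 456 TPM, Itgam from 196 to 394 TPM, Adgre1 from 132 to 539 TPM and Mertk from 9.67 to 90.5 TPM over the 9 lines. Fcgr1 was at 1.68 to 42.1 TPM in BM lines and 110 to 330 TPM in the others. The list summed to 4215 to 9309 TPM in YS lines, to 11786 to 28521 TPM in FL lines and 11717 to 13300 TPM in BM lines. Much of the sum was Lyz2, at 1163 to 21976 TPM. YS line 1 differed from YS lines 2 and 3 in several of these markers. It was at 1086 TPM in Csf1r against 1882 and 1889, and at 1018 TPM in Cd68 against 2256 and 2042. In Lyz2 it was at 1163 TPM against 3531 and 3031, and in Fcgr1 at 122 TPM against 330 and 286. It lay between the other YS lines in Adgre1, Itgam and Spi1 and was the highest YS line in Mertk. Fibroblast and mast cell markers summed to at most 1.17 and 1.33 TPM. Of the neutrophil markers, S100a8 was at 10.5 to 25.1 TPM in FL lines, 3.43 to 5.00 TPM in BM lines and at most 2.19 TPM in YS lines. S100a9 and Elane were listed at 0 in every line and Mpo and Camp were at most 0.49 TPM. The endothelial list summed to 8.07 to 93.95 TPM. Kdr was at 0.03 to 0.86 TPM in BM lines and 0.29 to 54.4 TPM in the others, Vwf was at 37.6 to 44.8 TPM in BM lines and up to 42.2 TPM in the others, and Cdh5 was at most 1.38 TPM. The hepatocyte and visceral endoderm list summed to 1.03 to 20.6 TPM, nearly all of it Afp and highest in FL line 3, with Alb at most 0.21 TPM. The plasma cell list was 64.6 to 102 TPM in BM lines and at most 5.00 TPM elsewhere, nearly all of it Sdc1, while Jchain and Mzb1 were at most 0.21 TPM. BM line 2 stood apart. Its erythroid markers summed to 230 TPM, of which Hba-a1 gave 215, against 0.66 to 15.7 TPM in the other lines. For 45 genes that reached 20 TPM in YS line 2 and stayed below 0.5 TPM in the other BM lines, the median level in BM line 2 was 14.1% of that in YS line 2. This was the highest such share among the YS and FL lines. By the same rule it was 3.24% for YS line 1, 6.72% for YS line 3 and 5.77% to 8.38% for FL lines. Results are therefore also given without BM line 2 where that changed them. The part of these signals in the results was not tested.

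Binding sites of the pathway's factors are known from several promoters of these genes, and a few are shown to place the genes that follow. The ER stress element, ERSE (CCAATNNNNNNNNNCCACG), is bound by ATF6 together with NF-Y, and ERSE-II (ATTGGNCCACG) by ATF6 or XBP1. The core TGATGNAA is that of the C/EBP-ATF response element (CARE), where ATF4 binds with a C/EBP partner. RefSeq promoters of GRCm38.p6, covering 250 bases before to 50 after each start, held entries for 32 of the 36 genes; Atf6, Hyou1, Manf and Derl1 had none. On either strand, ERSE was in 9 of the 32 genes against 0.137% of all 27025 genes with a promoter entry, ERSE-II in 2 against 0.0444%, and the CARE core in 4 against 4.51%. The XBP1 element core TGACGTGG was in 0 of the 32 against 0.714% of all genes. No 2 of these motifs overlapped in any of the 32 genes. The ERSE genes were Hspa5, Hsp90b1, Calr, Canx, Dnajc3, Creld2, Pdia6, Syvn1 and Derl3, the ERSE-II genes Dnajb11 and Herpud1, and the CARE genes Trib3, Chac1, Asns and Herpud1. Since ERSE was first described in chaperone promoters such as that of Hspa5, its share among these genes is a description. In the following windows, written 5′ to 3′ along the gene, capitals mark the element. The first 5 hold ERSE, that of Herpud1 holds ERSE-II, and the last 2 hold the CARE core. In Calr and Chac1 the element is read on the opposite strand, so that its reverse complement is in capitals.
Hspa5, chr2:34772005-34772063, plus strand: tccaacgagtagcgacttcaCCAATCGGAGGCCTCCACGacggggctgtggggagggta
Calr, chr8:84847055-84847113, minus strand: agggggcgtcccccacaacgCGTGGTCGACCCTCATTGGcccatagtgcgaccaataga
Dnajc3, chr14:118937807-118937865, plus strand: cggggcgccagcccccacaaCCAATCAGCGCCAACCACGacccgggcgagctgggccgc
Pdia6, chr12:17266471-17266529, plus strand: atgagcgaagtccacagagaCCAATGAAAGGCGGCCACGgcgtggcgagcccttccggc
Syvn1, chr19:6046512-6046570, plus strand: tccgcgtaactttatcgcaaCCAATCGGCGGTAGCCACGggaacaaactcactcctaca
Herpud1, chr8:94386357-94386407, plus strand: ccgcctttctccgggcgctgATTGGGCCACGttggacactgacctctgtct
Asns, chr6:7693210-7693252, minus strand: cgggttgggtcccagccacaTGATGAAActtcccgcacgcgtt
Chac1, chr2:119351029-119351076, plus strand: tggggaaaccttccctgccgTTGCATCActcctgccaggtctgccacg

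Of the 16 genes of protein folding and import (11 chaperones, 3 isomerases and 2 translocon genes), 8 were higher in YS and 7 in FL lines than in BM lines and none was lower. Genes of these functions outside the 36, described below, moved in both directions. Among 36 other folding genes, 4 were higher and 6 lower in YS, and 3 higher and 7 lower in FL than in BM lines. Among 21 other translocon and signal peptidase genes these counts were 4 and 1, and 2 and 1. Of the 7 tested ERAD genes, 4 were lower in FL than in BM lines, and the integrated stress response genes moved in both directions. Differences are those of log2(TPM + 1), tested by limma, and a gene passed at a false discovery rate (FDR) under 0.1. In YS against BM lines, 9 of the 35 genes were higher and 3 lower, where 23.5% of all tested genes were higher and 14.4% lower. In FL against BM lines, 9 were higher and 8 lower, against 17.0% and 10.6% of all genes. In YS against FL lines, 3 were higher and 0 lower, against 6.20% and 6.56%. With a change of more than 2-fold also required, only Ddit4 passed in YS against BM lines, Sdf2l1, Ddit3 and Ddit4 in FL against BM lines and none of the 35 in YS against FL lines, where 8 had an unadjusted p under 0.05 at any fold. The shares of all genes under that rule were 12.8%, 10.3% and 3.79%. The median log2 difference of the 35 genes was 0.16, 0.06 and 0.08 in the same order, and that of all tested genes was 0.11, 0.09 and 0.02. Scaling by quantiles or by median ratios brought the median of all genes within 0.02 of 0, and the genes that were higher and lower became 10 and 7, or 8 and 9, in YS against BM lines, and 6 and 10, or 5 and 9, in FL against BM lines. The share of the 35 tested genes that passed was thus near the background in YS against BM and YS against FL lines and above it in FL against BM lines. The latter count depended on single lines: 17 genes became 10 without BM line 2 or FL line 1, 9 without BM line 1, 8 without FL line 3 and 7 without BM line 3.

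**Figure D1:**
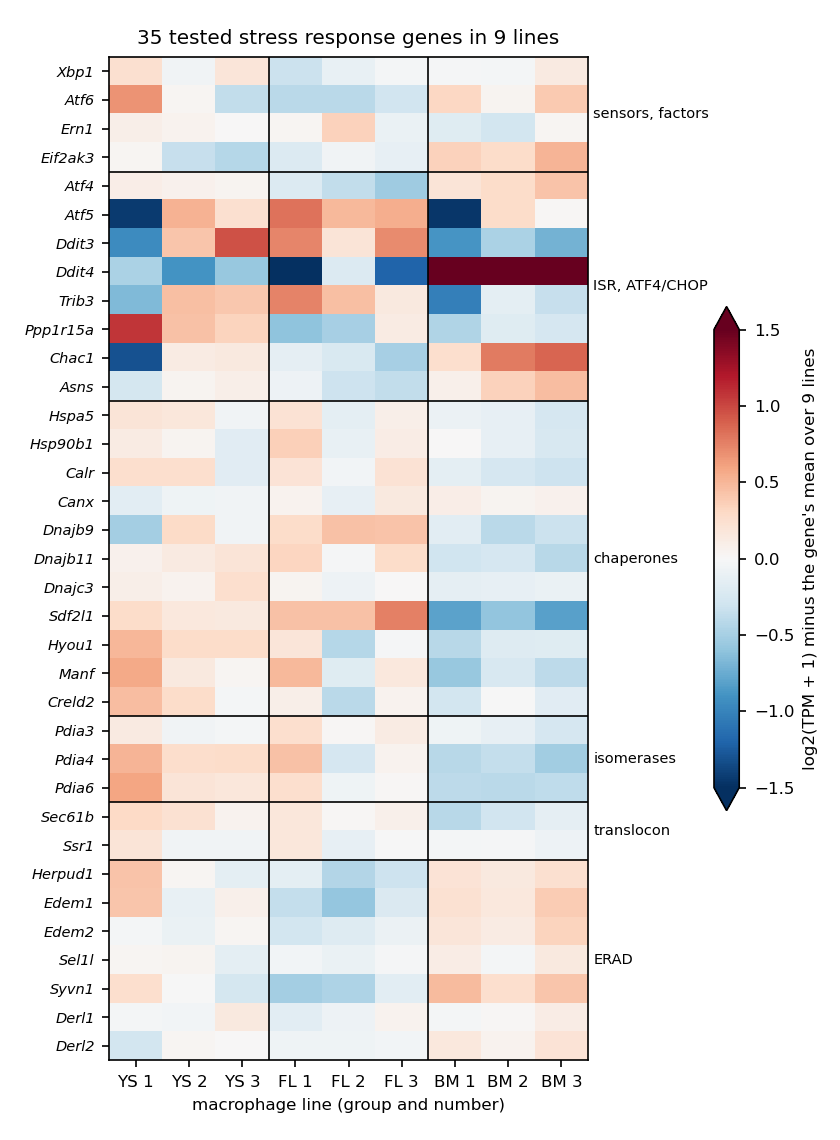
Heat map of the 35 tested stress response genes (rows, grouped by role) in the 9 macrophage lines (columns). Color is log2(TPM + 1) minus the gene's mean over the 9 lines, and values beyond 1.5 take the end color. Folding genes are mostly red in YS and FL lines and blue in BM lines, and Ddit4 is high in all 3 BM lines. YS line 1 and BM line 1 are blue in Atf5, and YS line 1 and all 3 BM lines are blue in Ddit3 and Trib3.

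Among the 11 ER chaperones and co-chaperones, 5 were higher in YS than in BM lines, 4 were higher in FL than in BM lines, and none was lower in either. Sdf2l1, which encodes a partner of BiP's ERdj co-chaperones that keeps unfolded proteins soluble, had the largest difference. It was at 209, 193 and 191 TPM in YS lines, at 234, 233 and 291 TPM in FL lines, and 98.4, 114 and 97.6 TPM in BM lines. Every YS and FL line was thus above every BM line, and every FL line above every YS line. The log2 difference was 0.93 in YS against BM lines (SE 0.12, adjusted p = 0.0021) and 1.28 in FL against BM lines (SE 0.12, adjusted p = 0.00054), and that of YS against FL lines did not pass (-0.35, SE 0.12, adjusted p = 0.11). The first 2 passed under all 18 alternatives.

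Dnajb11, whose product ERdj3 hands unfolded proteins to BiP and whose RefSeq promoter table entry holds ERSE-II just after the start, followed the same order of embryonic over adult lines. Its level was 199, 208 and 217 TPM in YS lines, at 237, 187 and 230 TPM in FL lines, and 154, 159 and 142 TPM in BM lines. The log2 difference from BM lines was 0.45 for YS lines (SE 0.11, adjusted p = 0.020) and 0.51 for FL lines (SE 0.11, adjusted p = 0.015), and both passed under all 18 alternatives. Manf, a secreted ER protein released when ER calcium falls, was at 169, 126 and 116 TPM in YS lines, at 159, 100 and 127 TPM in FL lines, and 76.5, 96.3 and 86.8 TPM in BM lines. The groups did not overlap, but FL line 2 was only just above BM line 2. Manf passed in YS against BM lines (log2 difference 0.65, SE 0.20, adjusted p = 0.042) and in FL against BM lines (0.55, SE 0.20, adjusted p = 0.087), the latter under 7 of 18 alternatives and not without BM line 2 (0.63, adjusted p = 0.12), any other BM line, FL line 1 or 3, or YS line 2 (highest adjusted p = 0.25). Without BM line 1 or 3 the YS difference did not pass either (highest adjusted p = 0.14).

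Hyou1 and Dnajc3 passed in YS against BM lines and Dnajb9 in FL against BM lines. Hyou1, the large ER Hsp70 that acts as an exchange factor of BiP, was at 176, 151 and 151 TPM in YS lines, at 142, 92.1 and 123 TPM in FL lines, and 93.2, 109 and 110 TPM in BM lines. The YS lines were above all others, and FL line 2 was the lowest of all 9 lines. The log2 difference of YS from BM lines was 0.61 (SE 0.16, adjusted p = 0.026), and that of FL from BM lines did not pass (0.17, SE 0.16, adjusted p = 0.50). Dnajc3, which encodes the co-chaperone P58IPK and carries the ERSE shown above, was at 70.98 to 81.5 TPM in YS lines and 61.99 to 63.9 TPM in BM lines (log2 difference 0.25, SE 0.09, adjusted p = 0.075). It did not pass without YS line 3, FL line 3 or any BM line, nor with only the YS and BM libraries or no variance trend, nor under median-ratio or quantile scaling (0.12, adjusted p = 0.35, the highest of these). Dnajb9, whose product ERdj4 restrains IRE1, was at 31.6, 35.6 and 35.3 TPM in FL lines against 23.1, 19.4 and 20.6 TPM in BM lines (log2 difference 0.68, SE 0.19, adjusted p = 0.039; highest 0.12, without BM line 3, and also not passed without BM line 2 or FL line 3). In YS lines Dnajb9 was at 17.97, 31.9 and 25.0 TPM, from below to above the range of BM lines, and without YS line 1 the difference from BM lines passed (0.41, adjusted p = 0.061).

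The most abundant chaperones, Calr, Hspa5, Hsp90b1 and Canx, and the less abundant Creld2 did not pass in any comparison. Under the 18 alternatives of YS against BM lines, Hspa5 passed under 2, Calr under 4, Creld2 under 2 and Canx (lower in YS lines) under 1. In FL against BM lines Calr passed under 5. Hspa5 encodes BiP, the Hsp70 of the ER that holds the sensors inactive, and its promoter heads the ERSE windows above. It was at 1231, 1215 and 1037 TPM in YS lines, at 1252, 972 and 1140 TPM in FL lines, and 1014, 986 and 904 TPM in BM lines. The YS lines lay above the BM lines by a small step, with a log2 difference of 0.26 (SE 0.13, adjusted p = 0.16), and FL lines overlapped both. Calr, the calcium-binding lectin chaperone calreticulin and the highest of the 36 genes in every library, was at 1475, 1474 and 1103 TPM in YS lines, at 1434, 1204 and 1441 TPM in FL lines, and 1117, 1045 and 996 TPM in BM lines. Its log2 difference from BM lines was 0.35 for YS lines (SE 0.14, adjusted p = 0.10) and 0.37 for FL lines (SE 0.14, adjusted p = 0.11), both just short of the threshold, with all FL lines above all BM lines. Hsp90b1 (the ER Hsp90, GRP94), Creld2 and Canx (the membrane-bound lectin chaperone calnexin) had log2 differences between -0.16 and 0.39 in all 3 comparisons, and Canx was the chaperone whose mean was highest in BM lines (382 ± 7.79 TPM; SD, n = 3).

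Of the 10 tested genes with ERSE or ERSE-II, 3 were higher in YS than in BM lines (Dnajb11, Dnajc3 and Pdia6) and none was lower. In FL against BM lines, 2 were higher (Dnajb11 and Pdia6) and 2 lower (Herpud1 and Syvn1), and none of the 10 passed in YS against FL lines. These counts are set against the 23.5% and 14.4%, 17.0% and 10.6%, and 6.20% and 6.56% of all genes given above. With 10 genes nothing is read from them about the elements.

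The disulfide isomerases form and rearrange disulfide bonds of folding proteins. All 3 had higher levels in every YS and every FL line than in every BM line. Of the 11753 tested genes, 3556 were higher in every YS line than in every BM line, and 3646 in every FL line. Counted in either direction, 49.0% and 49.5% of all tested genes did not overlap in these comparisons. Pdia4 was at 207, 175 and 177 TPM in YS lines, at 197, 122 and 151 TPM in FL lines, and 109, 113 and 101 TPM in BM lines. Its log2 difference from BM lines was 0.78 for YS lines (SE 0.17, adjusted p = 0.012) and 0.51 for FL lines (SE 0.17, adjusted p = 0.066). FL line 2 was close to BM line 2, and without BM line 2 the FL difference did not pass (0.55, adjusted p = 0.12), nor without any other BM line or FL line 1 or 3 (highest adjusted p = 0.20). Pdia6, an isomerase that binds BiP and IRE1, was at 463, 353 and 346 TPM in YS lines, at 367, 294 and 312 TPM in FL lines, and 234, 232 and 235 TPM in BM lines. The BM lines hardly differed among themselves, and every other line was at 294 TPM or more. The log2 difference was 0.71 for YS lines (SE 0.14, adjusted p = 0.0079) and 0.47 for FL lines (SE 0.14, adjusted p = 0.044; 0.46, adjusted p = 0.12 without BM line 2, and up to 0.13 without FL line 1 or another BM line, and also lost under quantile scaling, 0.41, adjusted p = 0.11). Pdia3, the isomerase that works with calreticulin and calnexin, was at 587 ± 44.3, 634 ± 51.6 and 524 ± 34.3 TPM in YS, FL and BM lines (SD, n = 3 each) and did not pass (adjusted p = 0.28 and 0.11 against BM lines).

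Proteins enter the ER through the translocon, and Sec61b encodes the β subunit of its channel. It was at 289, 277 and 243 TPM in YS lines, at 265, 238 and 248 TPM in FL lines, and 176, 194 and 215 TPM in BM lines. No YS or FL line fell into the range of BM lines, and the log2 difference was 0.47 for YS lines (SE 0.11, adjusted p = 0.017) and 0.36 for FL lines (SE 0.11, adjusted p = 0.052; 0.36, adjusted p = 0.14 without BM line 2, and up to 0.19 without BM line 1, FL line 1 or FL line 3, and also lost under median-ratio scaling, 0.27, adjusted p = 0.12). Ssr1, a subunit of the translocon-associated TRAP complex, ranged from 43.3 to 54.0 TPM over all lines without a difference that passed.

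**Figure D2:**
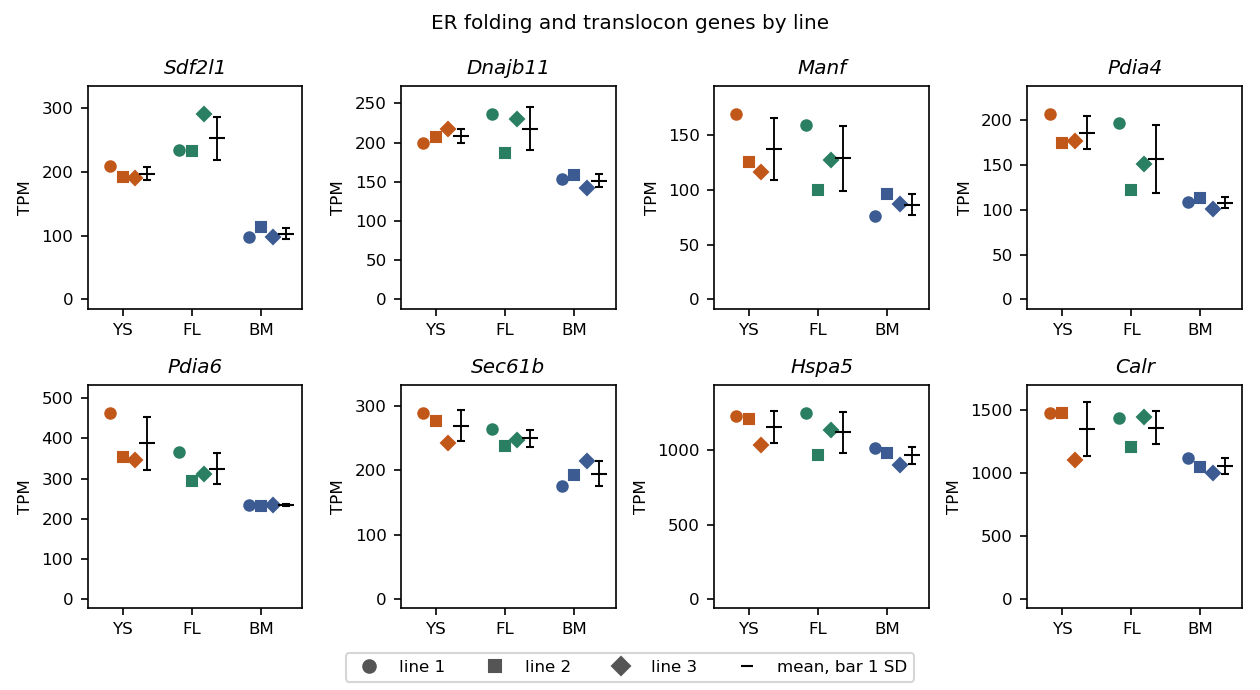
Levels in TPM of 8 ER folding and translocon genes in YS, FL and BM lines; each symbol is 1 line (circle, line 1; square, line 2; diamond, line 3), and the bar beside each group is the mean with 1 SD (n = 3). In the first 6 panels (Sdf2l1, Dnajb11, Manf, Pdia4, Pdia6, Sec61b) no BM line reaches a YS or FL line, whereas in Hspa5 and Calr the groups overlap or lie close.

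All 7 tested ERAD genes had lower means in YS and in FL lines than in BM lines. Log2 differences were below 0 for 4848 and 4809 of the 11753 tested genes in these comparisons. Among the 21 other ERAD genes described below, 10 and 8 were below 0. Derl1 and Herpud1 reached 0.03 in YS against BM lines under at least 1 alternative. By the test, 4 of the 7 genes were lower in FL than in BM lines, against 10.6% of all tested genes. None of the 7 passed in YS against BM lines, where 6 lay between a log2 difference of -0.24 and -0.01 and Syvn1 at -0.39. In that comparison the unadjusted p was 0.043 for Edem2 and 0.040 for Syvn1, and these and Derl2 were lower by the test under quantile or median-ratio scaling, which made 3 of 7. Syvn1 encodes HRD1, the ubiquitin ligase at the centre of ERAD. It was at 32.5, 26.9 and 22.3 TPM in YS lines, at 18.8, 19.5 and 24.1 TPM in FL lines, and 38.0, 32.4 and 36.6 TPM in BM lines. All FL lines were below all BM lines (log2 difference -0.76, SE 0.16, adjusted p = 0.013), and YS lines reached from FL to BM levels (-0.39, SE 0.16, adjusted p = 0.10).

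Edem1 encodes a lectin that takes mannose-trimmed glycoproteins out of the folding cycle. It was at 167, 116 and 132 TPM in YS lines, at 97.5, 83.6 and 107 TPM in FL lines, and 147, 140 and 163 TPM in BM lines. FL lines were below both other groups without overlap, with a log2 difference of -0.64 from BM lines (SE 0.15, adjusted p = 0.020), and YS lines were higher than FL lines by 0.51 (SE 0.15, adjusted p = 0.087). The latter passed only without YS line 2 among the fits that left out 1 line (highest adjusted p = 0.23), and neither without the filter on low values nor without the variance trend. Its relative Edem2 was at 38.1 to 43.7 TPM in FL lines and 50.9 to 58.8 TPM in BM lines (log2 difference -0.40, SE 0.10, adjusted p = 0.027, and 0.12 without BM line 3). Herpud1, the HRD1 partner whose window with ERSE-II is shown above, was at 57.6, 47.2 and 51.6 TPM in FL lines and 73.8, 70.8 and 75.9 TPM in BM lines (log2 difference -0.49, SE 0.15, adjusted p = 0.053), and passed neither without BM line 2 nor without BM line 1, BM line 3, FL line 2 or FL line 3 (highest adjusted p = 0.16). In YS lines Herpud1 was at 86.4, 65.4 and 57.9 TPM, on both sides of the BM lines.

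Sel1l, the adaptor of HRD1, and Derl1 and Derl2, membrane proteins of the retrotranslocation step, had log2 differences between -0.22 and 0.08 in the 3 comparisons and did not pass. Derl3 was the gene that failed the filter, with at most 0.41 TPM in any line and listed at 0 in YS line 2, BM line 2 and BM line 3.

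Of the 4 sensors and their transcription factors, only Eif2ak3 passed, and it was lower in both embryonic groups. Eif2ak3, which encodes PERK, was at 22.0, 16.7 and 15.7 TPM in YS lines, at 18.6, 20.7 and 19.6 TPM in FL lines, and 27.6, 26.3 and 31.1 TPM in BM lines. All BM lines were above all others, and the log2 difference was -0.63 for YS lines (SE 0.15, adjusted p = 0.016) and -0.50 for FL lines (SE 0.15, adjusted p = 0.043). The latter did not pass without BM line 1 or 3 or FL line 1 or 3 (highest adjusted p = 0.16). Atf6 was at 97.3, 61.8 and 46.6 TPM in YS lines, at 45.3, 45.6 and 49.3 TPM in FL lines, and 75.4, 62.2 and 79.2 TPM in BM lines. The FL lines were below the BM lines without overlap, but the difference just missed the threshold (log2 difference -0.61, SE 0.23, adjusted p = 0.10), and the YS lines spread over a wider range than the other groups together. Without YS line 1, Atf6 was lower than in BM lines in YS lines (-0.41, adjusted p = 0.081) and in FL lines (-0.61, adjusted p = 0.015). Ern1 lay between 12.96 and 20.6 TPM and Xbp1 between 88.1 and 130 TPM over all lines, and neither passed in any comparison.

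The 8 genes of the integrated stress response fell into opposite patterns. Atf4, whose product drives the response, was at 486, 474 and 464 TPM in YS lines, at 394, 349 and 312 TPM in FL lines, and 517, 549 and 609 TPM in BM lines. The 3 groups did not overlap, in the order BM over YS over FL. The log2 difference of FL from BM lines was -0.67 (SE 0.11, adjusted p = 0.0048) and held under all 18 alternatives. That of YS from FL lines was 0.44 (SE 0.11, adjusted p = 0.062, and up to 0.18 without FL line 2, FL line 3 or a BM line), and that of YS from BM lines did not pass (-0.23, SE 0.11, adjusted p = 0.16).

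Asns and Chac1, amino acid metabolism targets of ATF4 whose CARE windows are shown above, had their highest group mean in BM lines. In Asns, YS line 3 lay above BM line 1. Asns, asparagine synthetase, was at 114, 140 and 145 TPM in YS lines, at 130, 109 and 105 TPM in FL lines, and 143, 173 and 188 TPM in BM lines (FL against BM, log2 difference -0.54, SE 0.15, adjusted p = 0.032, and up to 0.13 without BM line 3 or FL line 3; YS against BM, -0.33, SE 0.15, adjusted p = 0.12). Chac1, which degrades glutathione, was at 4.56, 14.0 and 14.2 TPM in YS lines, at 11.5, 10.7 and 8.71 TPM in FL lines, and 15.3, 22.5 and 24.1 TPM in BM lines. Both embryonic groups lay below all BM lines. Chac1 passed in YS against BM lines (log2 difference -0.98, SE 0.37, adjusted p = 0.084) but not without YS line 1 (-0.50, adjusted p = 0.11), any FL line or any BM line (highest adjusted p = 0.22). It also did not pass without the filter on low values or with only the YS and BM libraries. Its difference of FL from BM lines was -0.92 (SE 0.37, adjusted p = 0.12).

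Ddit3 and Trib3 had their highest group mean in FL lines and their lowest in BM lines. Ddit3 encodes CHOP, the ATF4-induced factor associated with cell death under lasting stress. It was at 31.3, 81.8 and 119 TPM in YS lines, at 102, 69.9 and 100 TPM in FL lines, and 32.6, 43.8 and 37.0 TPM in BM lines. YS line 1 was the lowest of all 9 lines and the other YS lines were in or above the FL range. FL lines were higher than BM lines by a log2 difference of 1.23 (SE 0.42, adjusted p = 0.072; 1.34, adjusted p = 0.12 without BM line 2), and YS lines by 0.83 (SE 0.42, adjusted p = 0.17), which became 1.37 (adjusted p = 0.0070) without YS line 1. Trib3, a pseudokinase induced by CHOP and ATF4, was at 13.04, 29.4 and 28.5 TPM in YS lines, at 36.2, 29.4 and 23.7 TPM in FL lines, and 9.95, 19.1 and 16.5 TPM in BM lines. Its log2 difference of FL from BM lines was 0.95 (SE 0.34, adjusted p = 0.085), and that of YS from BM lines was 0.57 (SE 0.34, adjusted p = 0.24) with YS line 1 and 0.93 (adjusted p = 0.040) without it. In FL against BM lines Ddit3 passed under 10 of 18 alternatives and Trib3 under 10, and neither passed under quantile or median-ratio scaling, without the filter on low values, or without BM line 1, BM line 3, FL line 1 or FL line 3 (highest adjusted p = 0.20 and 0.26), and Trib3 also not without FL line 2.

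Ddit4, which encodes the mTORC1 inhibitor REDD1 and answers to ATF4 as well as to hypoxia and glucocorticoids, had the largest difference of all 36 genes. It was at 1.56, 0.91 and 1.39 TPM in YS lines, at 0.20, 2.08 and 0.55 TPM in FL lines, and 11.9, 9.05 and 9.39 TPM in BM lines. The highest embryonic line was at 2.08 TPM and the lowest BM line at 9.05 TPM. The log2 difference from BM lines was -2.28 for YS lines (SE 0.34, adjusted p = 0.0033) and -2.63 for FL lines (SE 0.34, adjusted p = 0.0017). At these low levels it depends on the pseudocount, and ranged from -1.41 to -2.90 and from -1.53 to -3.75 over the 18 alternatives, passing under each.

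Ppp1r15a was higher in YS lines than in both other groups. Its product GADD34 directs a phosphatase to eIF2α and so ends the response. It was at 43.4, 27.6 and 25.6 TPM in YS lines, at 12.8, 13.9 and 21.9 TPM in FL lines, and 14.4, 17.6 and 16.7 TPM in BM lines. Every YS line was above every other line, with a log2 difference of 0.91 from BM lines (SE 0.25, adjusted p = 0.027) and of 0.95 from FL lines (SE 0.25, adjusted p = 0.064; 0.72, adjusted p = 0.10 without YS line 1, and up to 0.18 without FL line 1, FL line 2 or a BM line). Atf5, a further transcription factor translated like ATF4, was at 22.9, 92.3 and 75.4 TPM in YS lines, at 113, 89.4 and 93.2 TPM in FL lines, and 22.6, 77.5 and 64.3 TPM in BM lines. All FL lines were above all BM lines, by a log2 difference of 1.00 that did not pass (SE 0.57, adjusted p = 0.25).

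**Figure D3:**
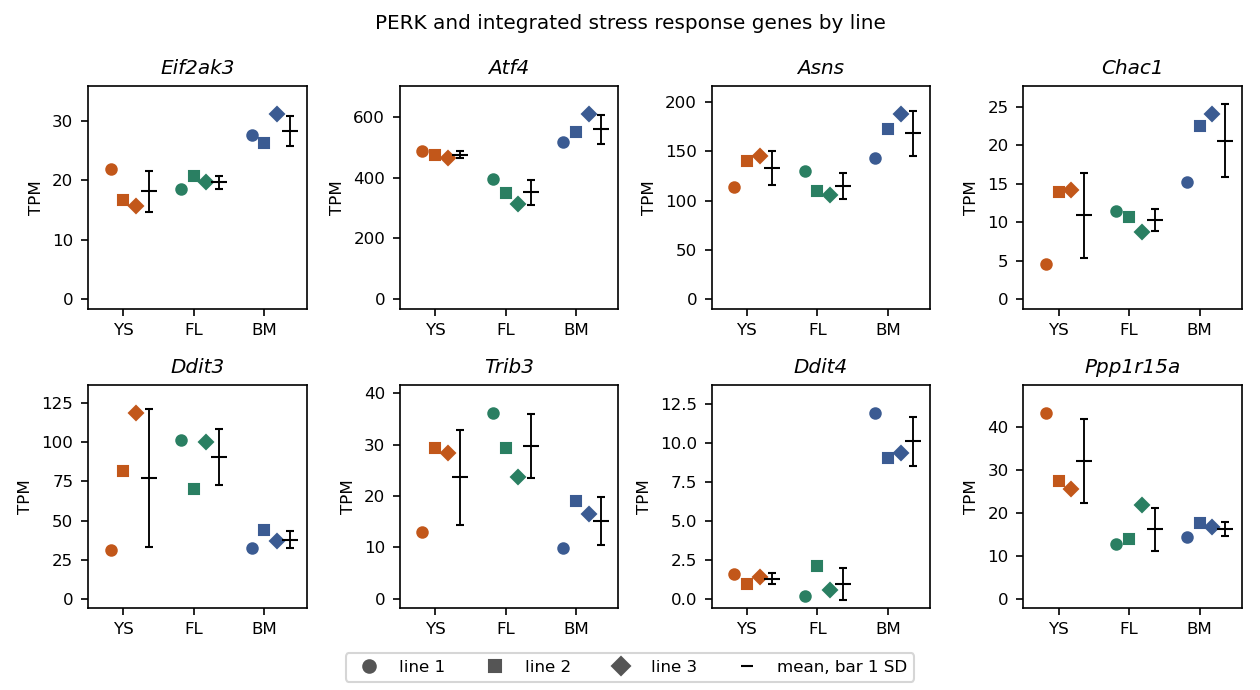
Levels in TPM of Eif2ak3 and 7 integrated stress response genes in YS, FL and BM lines; each symbol is 1 line (circle, line 1; square, line 2; diamond, line 3), and the bar is the mean with 1 SD (n = 3). Eif2ak3, Atf4, Chac1 and Ddit4 are highest in BM lines, Ppp1r15a in YS lines, and YS line 1 lies at 31.3 TPM in Ddit3 and 4.56 TPM in Chac1, far below YS lines 2 and 3.

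The lines of a group differed more in this branch than in the others. The median coefficient of variation over its 8 genes in YS, FL and BM lines was 34.5%, 16.8% and 15.2%, and over the 11 chaperones 9.29%, 12.6% and 8.69%. Over all tested genes it was 20.9%, 13.8% and 8.61%. YS line 1 held 0.27 times the mean of the other YS lines in Atf5, 0.31 times in Ddit3, 0.32 times in Chac1 and 0.45 times in Trib3, but 1.63 times in Ppp1r15a, and its Atf4 was the highest of the YS lines. It was also highest of the YS lines in all 4 sensors and transcription factors, all 3 isomerases and 7 of 11 chaperones. Outside these pathways, YS line 1 was the lowest YS line in the macrophage markers Csf1r, Cd68, Lyz2 and Fcgr1, as given above. BM line 1 was lowest of the BM lines in 7 of the 8 genes, with 0.32 times the mean of the other BM lines in Atf5 and 0.56 times in Trib3. FL line 1 was the highest FL line in 6 of the 8 genes, and also in 7 of 11 chaperones and all 3 isomerases. FL line 2 was the lowest FL line in 10 of 11 chaperones and in all 3 isomerases, and in 2 of the 8 genes of this branch.

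Set against Atf4 in the same library, Ddit3, Trib3 and Atf5 separated BM lines from the other lines apart from YS line 1. Ddit3 and Trib3 did so in TPM alone as well. The ratio of Ddit3 to Atf4 TPM was 0.064, 0.173 and 0.256 in YS lines, 0.259, 0.200 and 0.321 in FL lines, and 0.063, 0.080 and 0.061 in BM lines. That of Trib3 was at most 0.035 in BM lines and at least 0.061 in the others but YS line 1, and that of Atf5 at most 0.141 and at least 0.162. The ratio of Ppp1r15a was at most 0.0321 in BM lines and at least 0.0325 in all others. That of Ddit4 was at least 0.0154 in BM lines and at most 0.0060 in the others. The ratio of Asns to Atf4 stayed between 0.234 and 0.337 over all lines, and that of Chac1 between 0.028 and 0.041 in all lines but YS line 1, at 0.0094. The ratios are a description chosen after the values were seen and were not tested.

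**Figure D4:**
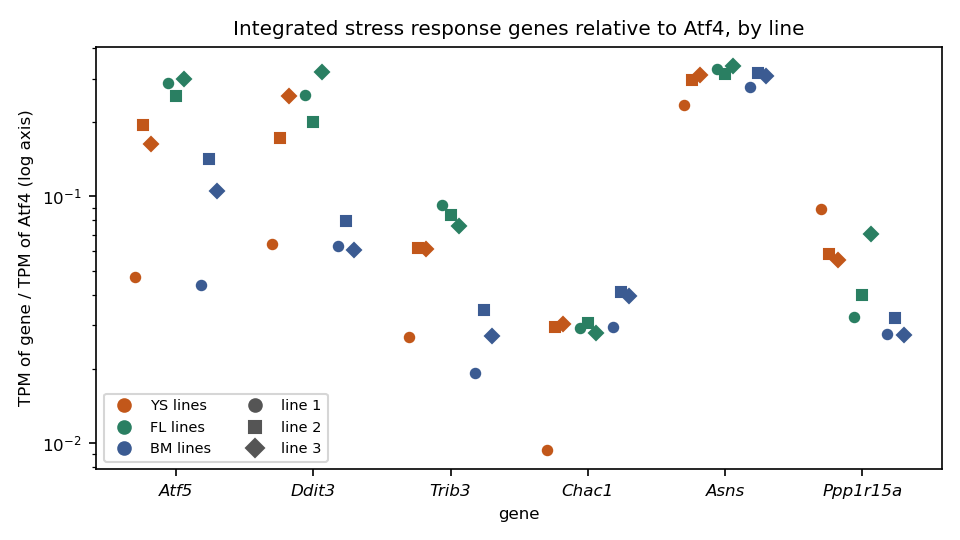
TPM of 6 integrated stress response genes divided by the TPM of Atf4 in the same library (log axis), for YS, FL and BM lines (colors) and line numbers (symbols). The Asns ratios lie between 0.234 and 0.337, whereas the Ddit3 ratios of the BM lines and YS line 1 lie between 0.061 and 0.080 and those of the other lines between 0.173 and 0.321.

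Between YS and FL lines, 3 of the 35 genes passed: Atf4, Ppp1r15a and Edem1, all higher in YS lines. None of the 3 passed without FL line 2, or when any single BM line was left out. Leaving out a BM line keeps the YS and FL values but changes the shared estimate of the spread and the genes tested. With only the 6 YS and FL libraries 0 of 35 passed, with 0.785% of all genes. The lines of YS and FL did not overlap in 7 of the 35 genes, against 26.1% of all tested genes. The corresponding numbers without overlap were 18 in YS against BM lines and 25 in FL against BM lines, set against the 49.0% and 49.5% given above. YS and FL lines were compared with the same BM lines, so that their differences from BM lines are not independent. Dnajb11, Manf, Pdia4, Pdia6, Sdf2l1 and Sec61b were higher in both, Ddit4 and Eif2ak3 lower in both, and 14 genes passed in no comparison. Under all 18 alternatives, 9 genes held their difference of YS from BM lines (Eif2ak3, Ddit4, Ppp1r15a, Dnajb11, Sdf2l1, Hyou1, Pdia4, Pdia6 and Sec61b) and 6 that of FL from BM lines (Atf4, Ddit4, Dnajb11, Sdf2l1, Edem1 and Syvn1).

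**Figure D5:**
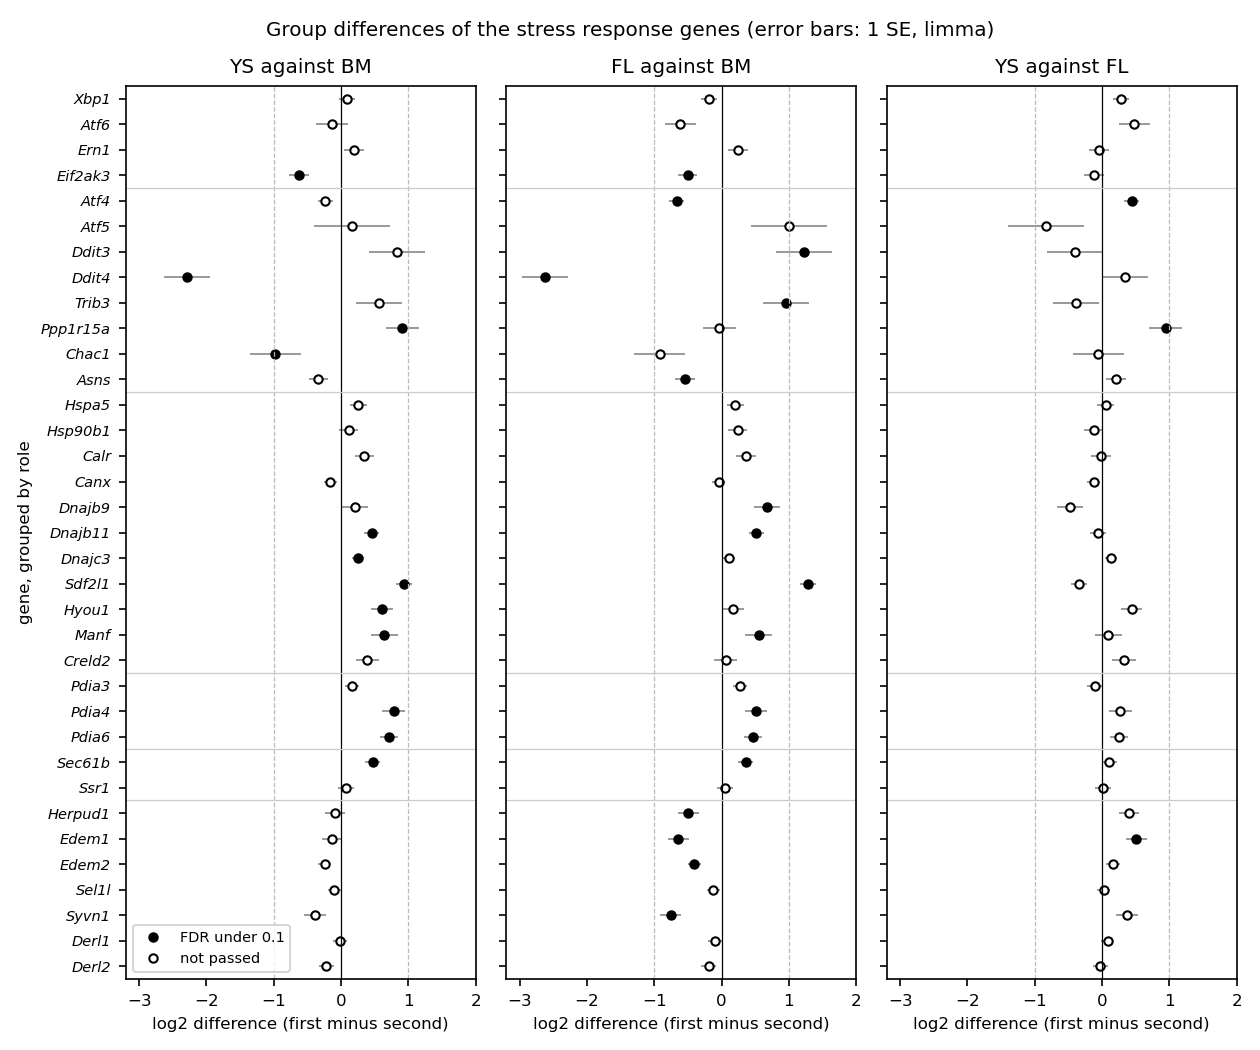
Log2 differences, on the log2(TPM + 1) scale, of the 35 tested genes (rows, by role) in YS against BM, FL against BM and YS against FL lines; bars are 1 SE from limma, filled symbols passed at an FDR under 0.1, and dashed lines mark 2-fold. Ddit4 lies at -2.28 and -2.63 against BM lines, all 7 ERAD genes lie at or left of 0 against BM lines, and the folding genes mostly lie to the right.

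Other genes of the same pathways, 150 on lists of known sensors, eIF2 regulators, ATF4 targets, folding enzymes, ERAD genes and translocon genes, of which 142 were tested, gave 29 higher and 14 lower in YS than in BM lines, 22 higher and 19 lower in FL than in BM lines, and 16 higher and 5 lower in YS than in FL lines. Of all tested genes, 23.5% were higher and 14.4% lower, 17.0% and 10.6%, and 6.20% and 6.56% in the same order. In all, 30.3%, 28.9% and 14.8% of the 142 genes passed, against 37.9%, 27.6% and 12.8% of all tested genes. The same shares are the background for the counts of the single lists below. The median log2 differences of the 142 genes were 0.06, -0.01 and 0.03, set against the medians of all genes given above. The eIF2 kinases, phosphatases and eIF2B subunits had the largest share, with 7 of 14 higher and 1 lower in YS than in BM lines, and 6 of 14 higher and 1 lower in FL than in BM lines. Among them, Eif2ak2, which encodes the double-stranded RNA sensor PKR, was at 88.5, 100 and 112 TPM in YS lines, at 105, 61.0 and 72.6 TPM in FL lines, and 50.4, 60.9 and 33.1 TPM in BM lines. It was higher in YS than in BM lines by a log2 difference of 1.08 (SE 0.26, adjusted p = 0.017), and in FL lines by 0.72 (SE 0.26, adjusted p = 0.083), although FL line 2 and BM line 2 were nearly equal. The FL difference passed under neither quantile nor median-ratio scaling and not without FL line 1 or 3 or BM line 1 or 3, among others (highest adjusted p = 0.26).

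The other ATF4 targets moved in both directions, and their counts are set against the shares of all genes given above. Of the 39 tested, 9 were higher and 3 lower in YS than in BM lines, 4 higher and 8 lower in FL than in BM lines, and 9 higher and 0 lower in YS than in FL lines. Psat1, of serine synthesis, was higher than in BM lines in YS lines (51.2 ± 16.0 against 19.6 ± 5.87 TPM; SD, n = 3 each; log2 difference 1.33, SE 0.37, adjusted p = 0.031) and in FL lines (1.07, SE 0.37, adjusted p = 0.078, with FL line 2 at 25.1 TPM below BM line 2 at 26.2 TPM, and up to 0.23 without FL line 1 or 3 or BM line 1 or 3). Aldh1l2, of mitochondrial folate metabolism, reached 5.12, 2.27 and 2.98 TPM in YS lines and 0.22, 0.64 and 0.27 TPM in BM lines (log2 difference 1.66, SE 0.54, adjusted p = 0.052, and up to 0.14 without YS line 1, BM line 1 or BM line 3). Aldh18a1, the first enzyme of proline synthesis, ran the other way, at 22.7, 20.01 and 19.8 TPM in FL lines and 48.0, 46.7 and 56.3 TPM in BM lines (log2 difference -1.23, SE 0.12, adjusted p = 0.00064).

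In YS against FL lines the calls on these other genes rested on the fit of all 9 lines: 21 passed in that fit, 0 with only the 6 YS and FL libraries, 2 without FL line 2, 1 without FL line 3 and 9 or 10 without 1 BM line. Among the amino acid carriers, Slc1a5, Slc7a5 and Slc7a11 were higher in YS than in FL lines, whereas Slc3a2 had levels of 341, 322 and 204 TPM in the YS lines, all below the FL lines (350, 420 and 401 TPM). That difference did not pass (-0.46, SE 0.19, adjusted p = 0.17), and Slc3a2 is named after its values were seen. Slc1a5, a glutamine carrier, was at 113, 72.2 and 87.7 TPM in YS lines, at 54.8, 32.9 and 43.6 TPM in FL lines, and 91.7, 78.4 and 99.9 TPM in BM lines. FL lines were lower than both other groups (FL against BM, log2 difference -1.04, SE 0.22, adjusted p = 0.012; YS against FL, 1.05, SE 0.22, adjusted p = 0.041). The latter did not pass without FL line 2 or 3 (highest adjusted p = 0.12). Slc7a5, a carrier of large neutral amino acids, was higher in YS than in FL lines by 1.04 (SE 0.30, adjusted p = 0.079). It passed only without YS line 3 or FL line 1 among the fits that left out 1 line (highest adjusted p = 0.22). Slc7a11, the cystine carrier, was at 13.1, 7.17 and 3.14 TPM in YS lines, at 0.93, 1.67 and 2.78 TPM in FL lines, and 2.84, 2.42 and 2.56 TPM in BM lines, so that YS line 3 was close to the other groups (YS against FL, log2 difference 1.54, SE 0.42, adjusted p = 0.072; YS against BM, 1.12, SE 0.42, adjusted p = 0.082). The YS against FL difference passed only without YS line 3 among the fits that left out 1 line (highest adjusted p = 0.17). That from BM lines passed under neither quantile nor median-ratio scaling. Cth, which makes cysteine, reached 2.99, 2.98 and 1.00 TPM in YS lines and 0.28, 0.15 and 0.51 TPM in FL lines (log2 difference 1.28, SE 0.38, adjusted p = 0.083). It passed only without YS line 3 or BM line 1 among the fits that left out 1 line (highest adjusted p = 0.21). FL lines were also below BM lines in Cth (-1.02, SE 0.38, adjusted p = 0.094, and up to 0.28 without BM line 3) and in Vegfa, the vascular growth factor (-1.73, SE 0.37, adjusted p = 0.013). The lines of a group were uneven in Vegfa. FL line 1 held 3.08 times the mean of the other FL lines, and BM line 1 held 0.31 times that of the other BM lines.

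The other folding and import genes moved in both directions, and their counts are set against the same shares of all genes. Of 36 other chaperones and folding enzymes, 4 were higher and 6 lower in YS than in BM lines, and 3 higher and 7 lower in FL than in BM lines. Of 21 other ERAD genes, 5 were higher and 3 lower in YS, and 6 higher and 2 lower in FL than in BM lines. Of 21 other translocon and signal peptidase genes, 4 were higher and 1 lower in YS, and 2 higher and 1 lower in FL than in BM lines. Sec11c, a catalytic subunit of the signal peptidase, was at 321, 544 and 384 TPM in YS lines, at 549, 520 and 561 TPM in FL lines, and 1530, 1410 and 1618 TPM in BM lines (log2 difference -1.90 for YS lines, SE 0.18, adjusted p = 0.00066, and -1.48 for FL lines, SE 0.18, adjusted p = 0.0013). Fkbp2, a prolyl isomerase of the ER, was at 118 to 176 TPM in YS lines, at 122 to 149 TPM in FL lines and 278 to 335 TPM in BM lines (log2 difference -1.04 and -1.12, SE 0.16, adjusted p = 0.0038 and 0.0026). Dnajc10, the ER reductase ERdj5, was at 50.8 to 56.6 TPM in YS lines and 110 to 120 TPM in BM lines (log2 difference -1.08, SE 0.13, adjusted p = 0.0016), and Dnajb2, a cytosolic and ER-anchored co-chaperone, was lower in FL than in BM lines (-1.40, SE 0.34, adjusted p = 0.021). Prkcsh, the β subunit of glucosidase II, was at 200, 165 and 313 TPM in YS lines, above both other groups, which ranged from 71.5 to 125 TPM (log2 difference 1.04 from BM lines, SE 0.26, adjusted p = 0.020, and 1.18 from FL lines, SE 0.26, adjusted p = 0.045). The difference from FL lines did not pass without FL line 2 or 3 (highest adjusted p = 0.13). Fkbp11 was at 2.64, 1.36 and 2.24 TPM in FL lines and did not exceed 0.44 TPM in YS lines (YS against FL, log2 difference -1.42, SE 0.26, adjusted p = 0.030, and 0.11 without FL line 3).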

How the data were processed

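RNA of 9 macrophage lines (3 YS, 3 FL, 3 BM) was sequenced by the authors from poly(A)-selected, directional libraries as single reads. The authors deposited 1 table of TPM per gene symbol, with 2 decimals, and each library sums to 1000000; the submitters' processing notes name Trim Galore 0.6.6, STAR 2.7.9a and RSEM 1.3.3, and the genome build and annotation are not given in the sources used here. TPM keeps no depth, so that no counting error is given and the spread between lines is the only measure of precision. All 9 columns matched a sample label.

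From the TPM, log2(TPM + 1) was computed for the 11753 genes that reached 1 TPM in 3 or more libraries. Groups were compared with limma 3.58.1 in R 4.3.3 (a linear model of all 9 libraries, variances moderated along the mean level by empirical Bayes, two-sided, Benjamini-Hochberg adjustment over all tested genes of a comparison). All adjusted p-values are from this test. The thresholds follow the study: FDR under 0.1, and also over 2-fold where stated. The method was tested on simulated data. An exact permutation test of 3 lines against 3 cannot go below p = 0.1. All 36 genes are named; other pathway genes were named where they passed with over 2-fold in at least 1 comparison, at most 10 a comparison by size. The genes and lists were chosen with earlier results of these data known. Motifs were searched on both strands of the RefSeq promoter table. Alternatives changed the pseudocount, filter, scaling, variance trend, libraries in the fit and a replicate block, and left out each line.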

Additional observations from a re-analysis of the deposited data

How the results depend on the processing

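Of the single-gene values under the alternatives, 1692 kept their direction and side of the threshold, 103 lost and 51 gained the call, 44 moved without a call, and no called value changed sign. In YS against BM lines, 2 of the 35 genes passed with over 2-fold at a pseudocount of 0.1, quantile or median-ratio scaling (1 as reported), and 5 of the other pathway genes under median-ratio scaling (8). The median of the 35 genes moved from 0.16 to 0.0895 and 0.0479 under quantile and median-ratio scaling, and in FL against BM lines from 0.06 to -0.0215 and -0.0303. At a pseudocount of 4, 3 of the other genes passed with over 2-fold in FL against BM lines (8) and 1 in YS against FL lines (6); the latter became 3 with the 5 TPM filter. With only the 6 libraries of YS and FL lines, 0 of the 35 and 0 of the other genes passed, at any fold or with over 2-fold.

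Leaving out 1 line at a time gave 9 to 16, 7 to 21 and 0 to 5 passing genes of the 35 in YS against BM, FL against BM and YS against FL lines, and with over 2-fold 1 to 3, 2 to 3 and 0 to 1. The other pathway genes gave 23 to 51, 16 to 49 and 1 to 24, and with over 2-fold 5 to 8, 5 to 9 and 0 to 6. The medians of the 35 genes ranged from 0.10 to 0.19, 0.03 to 0.12 and 0.07 to 0.12. Where 2 lines remain in a group, the model shares the spread of the other groups.

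Line numbers came from the titles. Same-numbered lines did not deviate together over genes (correlations from -0.12 to 0.09). With 3 lines a group, such correlations over all genes cannot show whether same-numbered lines shared a step of handling, and the labels name none. With the number as a replicate block, 1 of the 35 genes (Edem1) passed in YS against FL lines in place of 3, and 3 of the other genes with over 2-fold in place of 6.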
